A study of Homo sapiens with 4 samples.

Results

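Binding of ATF3 across the keratin gene clusters was examined in SW480, an established line from a colorectal adenocarcinoma. The clusters were taken as 2 windows in hg19: a type II window of 800 kb on chromosome 12, which holds KRT8 and KRT18, and a type I window of 990 kb on chromosome 17, which holds KRT19 and KRT20. The peaks of the 4 deposited lists were joined into regions wherever they shared at least 1 bp, and each region touching a window is a member. This gave 106 of the 44826 regions on chromosomes 1 to 22 and X, 58 in the type II window and 48 in the type I window. The members run from 52569910 to 53343793 on chromosome 12 and from 38803813 to 39781222 on chromosome 17. The rule uses position alone and no measured height.

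Before the assay the cells spent 24 h either in full medium or in a cystine-restricted medium. Cystine is oxidised cysteine, which cells import and reduce. Each medium has 2 libraries, made from about 100000 cells each by CUT&Tag, in which an antibody, here against ATF3, brings a transposase to chromatin to cut and tag the DNA around the bound protein. All libraries are from that line, and a control library lacking that antibody was not used here. The labels say only that the libraries of a medium are separate samples, so a p-value covers no more than the variation among these libraries, possibly technical.

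Keratins are the intermediate filament proteins of epithelial cells. A type I keratin pairs with a type II keratin to build the filament, and the partners are encoded in separate clusters, except that KRT18, a type I keratin, lies beside its partner KRT8 in the type II cluster. KRT8, KRT18, KRT19 and KRT20 are the keratins of the simple epithelium of the gut, KRT7 that of ducts and glands, KRT5 and KRT14 those of the basal layer of the skin, and KRT1 and KRT10 those of its upper layers. KRT6A, KRT16 and KRT17 are induced in wounded or stressed skin. Other members form the hair shaft and the inner root sheath around it. ATF3 is a stress-induced bZIP transcription factor that binds, mostly as a dimer with other bZIP proteins, to AP-1 and CRE sites.

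By the gene order of RefSeq in GRCh38.p14, the type II cluster runs from KRT80 and KRT7 to KRT8 and KRT18 and holds 27 protein-coding keratin genes. The type I cluster runs from KRT222 and KRT24 to KRT16 and KRT17 and holds 28, with 34 genes of keratin-associated proteins, which crosslink hair keratins, between KRT40 and KRT33A. Of these 55 genes, 7 are keratins of simple epithelia, 21 of stratified epithelia, 17 of the hair shaft and 9 of the inner root sheath and companion layer, and KRT222 is in none of these. The peaks are in hg19 and this annotation is not, so no region was assigned to a gene, and regions are named by position.

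Promoter sequences were available for 34 of the 55 keratin genes. Of the simple epithelial keratins only KRT8 and KRT20 are among them. KRT7, KRT18, KRT19, KRT1, KRT14, KRT6A, KRT16 and KRT17 are missing, so nothing below covers their promoters. Sequences are shown because ATF3 sites are known by their letters, and they say nothing on where the peaks lie. Each sequence is the 250 bases before the gene start (RefSeq, GRCh38.p14, minus strand), in lower case, with any match to TGANTCA (AP-1), TGACGTCA (CRE) or TGATGNAA (a C/EBP-ATF type site) on either strand in capitals. The first pair are gut keratins and the last 3 are the hair keratins with a match.
KRT8: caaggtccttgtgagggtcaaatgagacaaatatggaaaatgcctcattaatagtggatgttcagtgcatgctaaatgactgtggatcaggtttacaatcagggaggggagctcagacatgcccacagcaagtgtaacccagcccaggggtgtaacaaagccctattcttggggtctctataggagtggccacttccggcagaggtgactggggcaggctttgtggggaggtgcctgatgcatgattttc
KRT20: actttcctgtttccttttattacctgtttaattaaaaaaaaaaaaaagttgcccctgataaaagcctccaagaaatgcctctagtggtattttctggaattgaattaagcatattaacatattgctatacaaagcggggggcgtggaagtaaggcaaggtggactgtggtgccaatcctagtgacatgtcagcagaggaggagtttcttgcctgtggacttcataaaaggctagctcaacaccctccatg
KRT33A: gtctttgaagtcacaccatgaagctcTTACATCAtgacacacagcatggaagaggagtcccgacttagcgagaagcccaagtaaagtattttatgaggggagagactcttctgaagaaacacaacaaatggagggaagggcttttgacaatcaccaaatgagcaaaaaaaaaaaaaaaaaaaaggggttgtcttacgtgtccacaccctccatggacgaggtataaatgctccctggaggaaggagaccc
KRT34: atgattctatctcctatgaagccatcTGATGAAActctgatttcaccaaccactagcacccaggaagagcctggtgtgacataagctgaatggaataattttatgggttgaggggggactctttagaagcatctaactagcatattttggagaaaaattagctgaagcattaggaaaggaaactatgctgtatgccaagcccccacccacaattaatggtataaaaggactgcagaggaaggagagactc
KRT82: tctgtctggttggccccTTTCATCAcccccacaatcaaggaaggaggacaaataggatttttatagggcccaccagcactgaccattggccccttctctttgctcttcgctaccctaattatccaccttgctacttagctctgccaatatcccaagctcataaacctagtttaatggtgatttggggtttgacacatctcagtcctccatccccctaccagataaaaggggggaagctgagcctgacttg
Over the full promoter window, 250 bases before to 50 after the start, none of the 34 keratin promoters held TGANTCA, which 7.91% of all 27305 promoters of the same length held. One AP-1 form of it, TGACTCA, was in 5.05% of all promoters. The CRE, TGACGTCA, was also in none of the 34, and in 1.94% of all. TGATGNAA was found in 3 keratin promoters (8.82%), KRT33A, KRT34 and KRT82, and in 3.75% of all promoters. A match is a description and not a site, and these letters being missing from a window says nothing on ATF3 elsewhere.

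Both keratin windows were dense in ATF3 regions. The type II window had 72.5 regions per Mb, against 16.1 over chromosome 12, and the type I window had 48.5 per Mb, against 33.6 over chromosome 17. Across chromosomes 1 to 22 and X there were 15.2 per Mb, all measured from the first to the last region of a chromosome. Regions with a peak in all 4 libraries numbered 21.2 per Mb in the type II window and 13.1 in the type I window, against 3.81 on chromosome 12 and 8.77 on chromosome 17. These densities were not tested. The local background, the pileup expected from all tags in a 10 kb window around a peak, the peak's own included, was also high. Its median in keratin peaks was 3.42 to 3.87 times the genome background in the 4 libraries, against 1.74 to 1.95 times over all peaks. Whether copy number or open chromatin goes with this was not tested.

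The regions were unevenly spread within each window. In the type II window, the 200 kb at the low end, the KRT80 and KRT7 side of the gene order, held 22 of the 58 regions and 8 of the 17 found in all 4 libraries. The last 100 kb, the KRT8 and KRT18 side, held 10 regions, 4 of them in all 4 libraries. The longest stretch without any region ran for 89.8 kb, from 53102019 to 53191812. In the type I window, 23 of the 48 regions lay 200 to 500 kb from the low end and 20 lay from 700 kb to the high end. Between 500 and 700 kb there were 3 regions, none of them in all 4 libraries. The longest stretch without a region in that window was 205.7 kb, from 38804899 to 39010580. Repeated or near-identical sequence can keep reads from being placed, and whether it goes with the empty stretches was not tested.

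**Figure D1:**
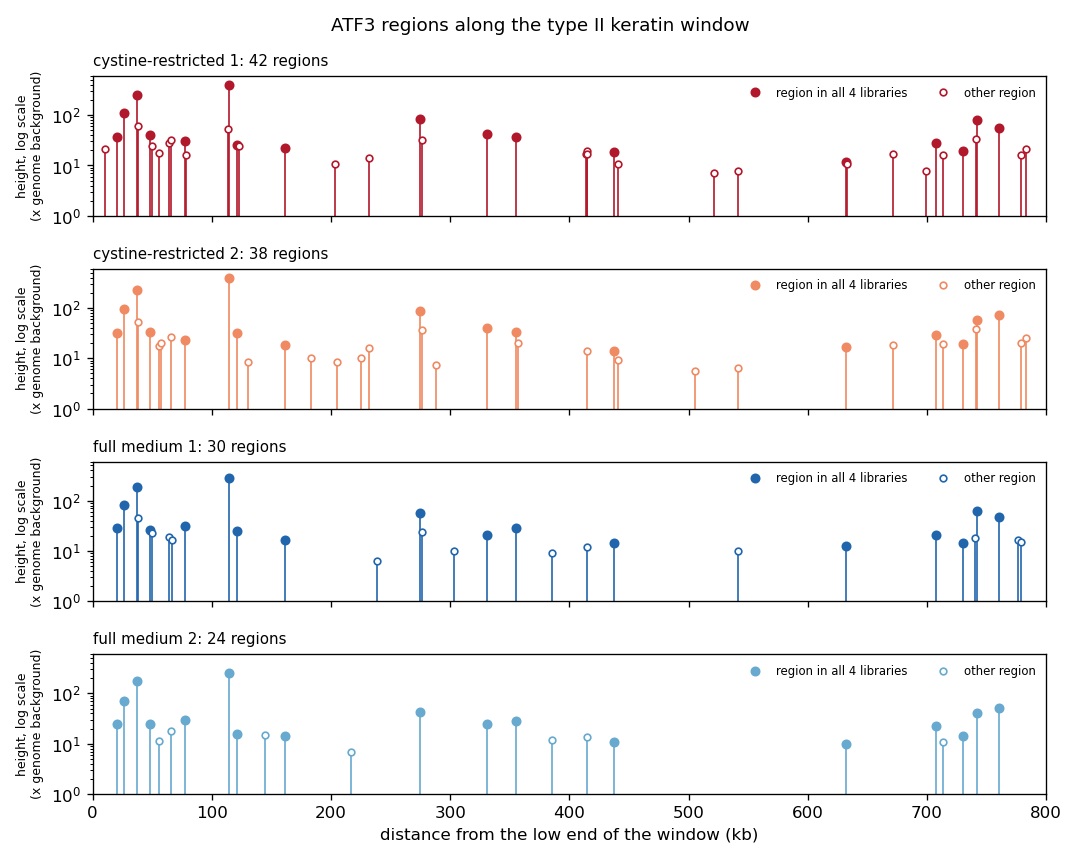
Height of each ATF3 region of the type II keratin window in the 4 libraries, as summit pileup over the genome background on a log axis, against the distance from the low end of the window in kb. Filled points are the 17 regions in all 4 libraries, and the tallest in each library lies 114 kb from the low end.

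More keratin peaks were listed under cystine restriction. In the type II window, replicates 1 and 2 of the restricted medium had 42 and 42 peaks, and those of full medium had 33 and 27, a ratio of means of 1.40. The type I window had 36 and 29 peaks under restriction and 17 and 21 in full medium, a ratio of 1.71. In neither window did the media overlap, with the restricted pair the higher. Over both windows the means were 74.5 ± 4.9 and 49.0 ± 1.4 peaks (SD, n = 2 each), a ratio of 1.52, while over the genome it was 1.73. The two-sided exact permutation p was 0.33 for each window and for both together, the smallest that 2 libraries against 2 can give. When the same number of top peaks was taken from each library, the type II ratio became 0.983 and the type I ratio 1.11. The genome background pileup, proportional to the tags kept, overlapped between the media, at 1.30 and 1.08 tags under restriction and 1.11 and 1.32 tags in full medium.

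**Figure D2:**
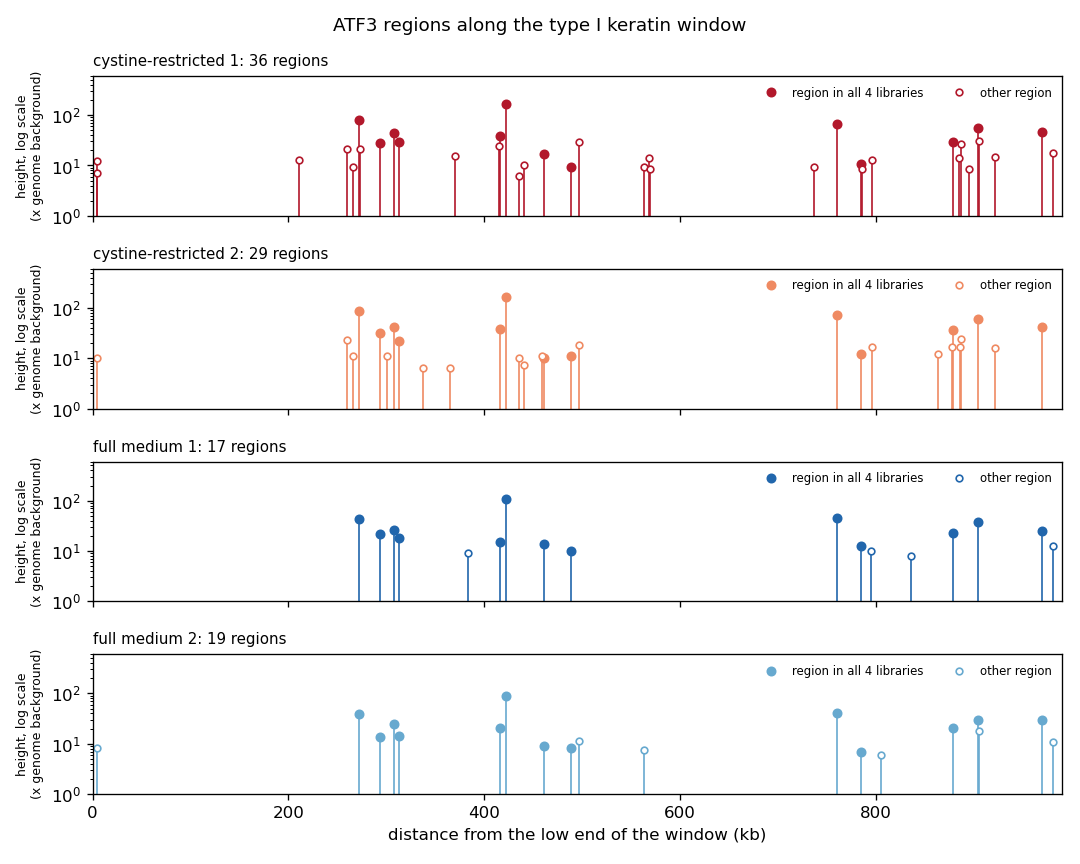
Height of each ATF3 region of the type I keratin window in the 4 libraries, as summit pileup over the genome background on a log axis, against the distance from the low end of the window in kb. Filled points are the 13 regions in all 4 libraries, with none between 500 and 700 kb.

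Of the keratin regions missing from at least 1 list, most were in a single library. Of the 106 regions, 30 had a peak in all 4 libraries (28.3%, against 23.0% of all regions), and 11 were gained, with a peak in both restricted and no full-medium library (10.4%, against 12.7% of all regions). One region was lost, the reverse case (0.943%, against 0.386%). It was 1 of 32 keratin regions in both full-medium libraries (3.12%, against 1.56% over all such regions). A further 10 were in both restricted and 1 full-medium library (9.43%, against 10.3%). Single-library regions numbered 48 (45.3%, against 46.4%), 37 of them in a restricted library (34.9%, against 36.4%) and 11 in a full-medium library (10.4%, against 9.96%). Over both windows together, the keratin shares thus lay near those over all regions, except the lost share, which rests on a single region. The windows apart differed more. Both restricted and 1 full-medium library held 8 type II (13.8%) and 2 type I regions (4.17%), against 10.3%. In 1 restricted library alone were 17 type II (29.3%) and 20 type I regions (41.7%), against 36.4%. Of the 51 keratin regions found in both restricted libraries, 21.6% were gained, against 27.6% over all such regions. By window the gained share was 5 of 30 for type II and 6 of 21 for type I. Without cystine-restricted replicate 1 or 2, 27 or 32 regions counted as gained, and without full-medium replicate 2, 17, since fewer libraries are then required. The lost count was likewise 9 and 4 without full-medium replicates 2 and 1 and 2 without restricted replicate 1. In lists cut to equal length by −log10 p, the gained count was 6 and the lost count 2. Shares over all regions at these altered settings are not given here, so these counts are not set against a background.

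**Figure D3:**
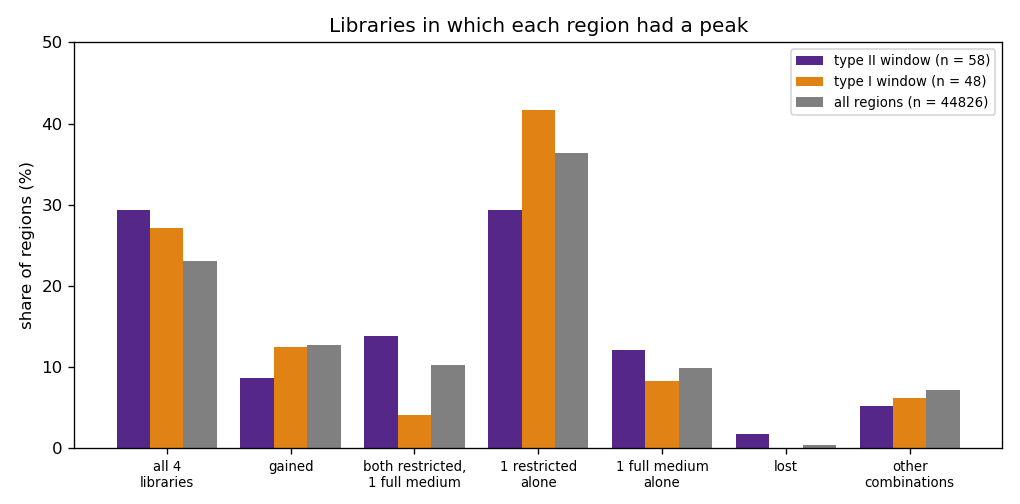
Share of regions, in percent, by the libraries in which they had a peak, for the type II window (58 regions), the type I window (48 regions) and all 44826 regions. The 30 keratin regions in all 4 libraries and the 11 gained regions make up shares near those of all regions.

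The strongest keratin region lay in the type II window, on chromosome 12 from 52673558 to 52675083. By −log10 p it ranked 14 and 13 among all peaks of restricted replicates 1 and 2, and 27 and 23 among those of full medium. Its summit pileups were 512 and 423 tags under restriction and 313 and 334 tags in full medium, or heights of 395 and 390.2 against 283 and 253 times the genome background. Here and below, the height of a peak is its summit pileup over the genome background of its library, and the change is the mean log2 height under restriction less that in full medium. Both restricted libraries stood above both full-medium ones, and the change was 0.55 (1.47-fold). By the deposited fold enrichment, which divides by the local background, it was 0.041. All 4 summits lay within 10 bp of each other. The local background there was 18.4 to 30.04 times the genome background.

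A second peak of the same stretch, from 52596408 to 52597793, had heights of 251.2 and 222 under restriction and 189 and 173 in full medium, a change of 0.39. Another, from 52585525 to 52586706, had heights of 111 and 93.2 against 82.2 and 72.1, a change of 0.40. In both, the restricted libraries were the higher pair, but on the scale of the deposited fold enrichment the changes were −0.079 and −0.022. Between these and the strongest region lay the one keratin region in all 4 libraries that was not higher under restriction, from 52637390 to 52638338. Its heights were 30.8 and 23.1 under restriction and 30.7 and 29.6 in full medium, so that cystine-restricted replicate 2 alone was low, and the change was −0.18. Without that replicate it was 0.032.

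Farther along the type II window, 2 regions changed more. The region from 52834537 to 52835656 had heights of 84.8 and 84.9 under restriction and 56.9 and 42.5 in full medium, a change of 0.79. That from 52890064 to 52890967 had heights of 41.6 and 39.7 against 20.8 and 25.03, a change of 0.83, the largest of the window. Its summits were spread over 363 bp, so these heights are not all of 1 place. Restricted and full-medium libraries did not overlap in either of the 2 regions. By the deposited fold enrichment these changes were 0.15 and 0.27, and the largest of the window was then 0.33, from 53289382 to 53290448. There the summits were spread over 709 bp.

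Toward the KRT8 and KRT18 end, the region from 53301619 to 53302459 had heights of 80.9 and 57.2 under restriction and 61.5 and 40.97 in full medium. The media overlapped there, with a change of 0.44 that ran from 0.15 without full-medium replicate 2 to 0.73 without full-medium replicate 1, and was 0.19 and 0.69 without restricted replicates 1 and 2. The widest keratin region, 2662 bp from 53318800 to 53321461, had heights of 56.2 and 73.8 against 47.0 and 52.3, a change of 0.38 with no overlap, which became 0.57 and 0.18 without restricted replicates 1 and 2. Its summits were spread over 2013 bp, so that the libraries did not share 1 high point. On the scale of the deposited fold enrichment these changes were −0.057 and −0.14.

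The strongest region of the type I window lay on chromosome 17 from 39221852 to 39223098. Its heights were 166.4 and 167.0 under restriction and 105.7 and 90.3 in full medium, a change of 0.77 (1.71-fold). The media did not overlap, and the 4 summits lay within 7 bp. The region from 39071298 to 39072417 had heights of 80.1 and 84.9 against 43.4 and 39.4, a change of 1.00 (1.99-fold). The largest change of all the keratin regions was 1.09 (2.13-fold), from 39215551 to 39216864, where heights of 37.8 and 37.8 under restriction stood against 15.4 and 20.5 in full medium. Its summits were spread over 983 bp, so these heights are not all of 1 place. By the deposited fold enrichment the changes of these 3 regions were smaller, at 0.16, 0.22 and 0.18, and the largest of the window was then 0.37, at the region that starts at 39092531.

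Toward the high end of the type I window, 3 regions ranked among its 6 strongest. In the gene order that end holds KRT19 and the stress keratins KRT16 and KRT17, preceded by hair keratins. Which of these genes lies nearest to each region was not determined. The region from 39559767 to 39560928 had heights of 65.5 and 73.8 under restriction and 45.2 and 41.7 in full medium, a change of 0.68. That from 39703662 to 39704913 had heights of 56.2 and 60.9 against 37.1 and 29.6, a change of 0.82. The last, from 39768753 to 39769701, had heights of 47.0 and 42.4 against 25.3 and 29.6, a change of 0.71. In each of the 3 the restricted libraries were the higher pair. The remaining strong region, from 39107215 to 39108101, changed by 0.76, from heights of 26.2 and 24.3 in full medium to 43.9 and 41.5. The widest of the window, 1353 bp from 39092531 to 39093883, had heights of 27.7 and 32.3 under restriction and 21.7 and 13.7 in full medium, a change of 0.80. Its summits were spread over 344 bp, so these heights are not all of 1 place. The media did not overlap, but the full-medium libraries lay far apart, and the change was 1.13 without replicate 1 of full medium and 0.46 without its replicate 2. The smallest change, 0.15, was at a low region from 39287887 to 39288815, where pileups of 12 and 12 tags under restriction met 11 and 11 in full medium and the heights overlapped. It was 0.28 without restricted or full-medium replicate 1 and 0.022 and 0.025 without restricted and full-medium replicate 2. By the deposited fold enrichment the first 3 of these regions changed by 0.25, 0.25 and 0.28, the remaining strong one by 0.27, the widest by 0.37 and the last by −0.014.

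Over the 30 keratin regions in all 4 libraries, heights were higher under restriction in 29 (96.7%, against 92.0% of the 10331 such regions over all chromosomes), but by the deposited fold enrichment in 20 (66.7%, against 82.5%). By that scale, 11 of the 13 type I and 9 of the 17 type II regions were higher. Both restricted libraries were above both full-medium libraries in 23 of them (76.7%, against 72.8%) and below them in 0 (against 2.38%). The median change was 0.49 (interquartile range 0.37 to 0.75), against 0.53 (0.29 to 0.78) over all such regions, and 14 of the 30 were above that median. By the deposited fold enrichment the medians were 0.15 and 0.21. For a single region the two-sided exact permutation p cannot go below 0.33, so no region can be called on its own.

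The change was larger in the type I window than in the type II window. The median was 0.71 (interquartile range 0.61 to 0.80, 13 regions) in the type I window and 0.40 (0.37 to 0.53, 17 regions) in the type II window, a difference of 0.31. The medians of chromosomes 17 and 12, 0.57 and 0.54, differed by 0.032. Of the 13 type I regions 10 were above the median of all regions, and of the 17 type II regions 4 were. The windows overlapped, as 2 type II regions exceeded the type I median and 3 type I regions fell below the type II median. In the 4 comparisons of a restricted with a full-medium library, the type I medians were 0.60, 0.88, 0.66 and 0.82 and the type II medians 0.41, 0.62, 0.34 and 0.43, in the order of restricted replicate 1 over full-medium replicates 1 and 2 and then restricted replicate 2 over the same. Type I was higher in each, with libraries shared between comparisons. The difference was noticed in the data and was not tested, as regions of 1 window are no replicates.

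Its size depended on the scale. With the deposited fold enrichment the difference was 0.18, from medians of 0.22 in the type I and 0.036 in the type II window, while the median over all regions fell to 0.21. Relative to its own chromosome, the type I window then stood at 0.0019 and the type II window at −0.17, against 0.14 and −0.14 by pileup over genome background. The local background itself rose with restriction, by a median log2 change of 0.52 in type I, 0.46 in type II and 0.37 over all regions in all 4 libraries. Its part in the difference was not tested. In same-numbered pairs of libraries the difference was 0.16 in pair 1 and 0.41 in pair 2.

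**Figure D4:**
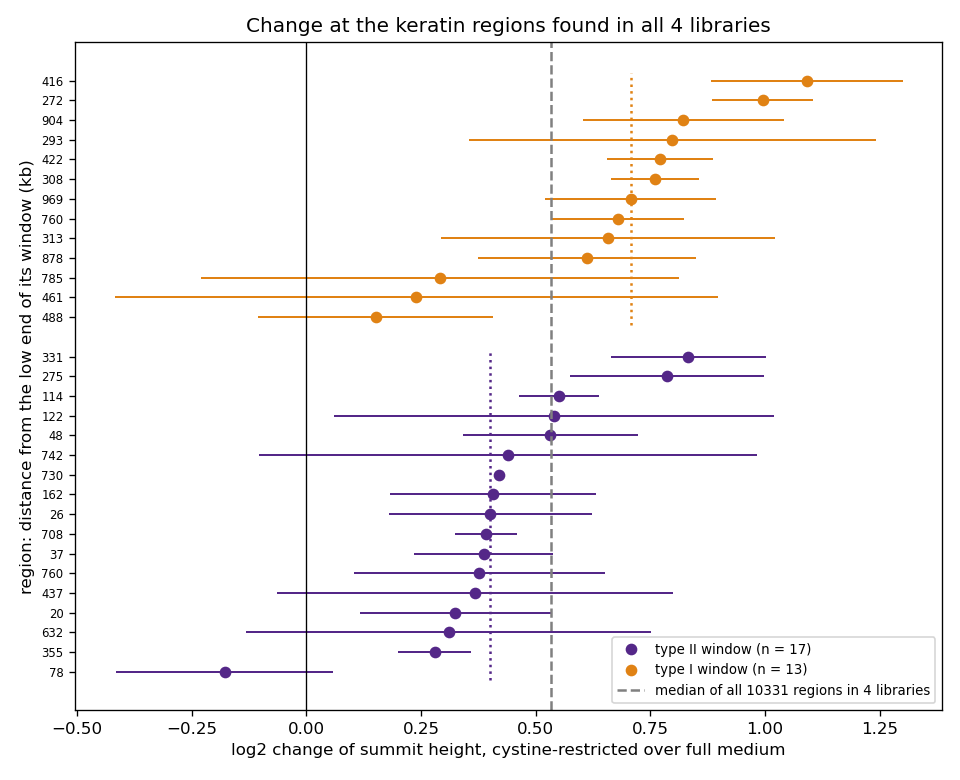
Log2 change of summit height, cystine-restricted over full medium, at the 30 keratin regions in all 4 libraries. Points are the mean change, horizontal lines run from the lowest to the highest of the 4 comparisons of single libraries, dotted lines mark the window medians of 0.40 (type II) and 0.71 (type I), and the dashed line marks the median of all regions, 0.53.

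The gained keratin regions were mostly lower and narrower than the keratin regions in all 4 libraries, but by pileup not lower than gained regions in general. Their median width was 428 bp, against 1107 bp for the keratin regions in all 4 libraries (475 and 888 bp over all regions), a contrast that is partly built in since joining peaks of more libraries can only widen a region. Their median pileups were 19 and 18 tags in the restricted libraries, against 16 and 13 over all gained regions. Pileup takes no account of the local background, which was higher in keratin peaks. Over all keratin peaks of the restricted libraries, gained or not, the median deposited fold enrichments were 5.01 and 4.88, against 5.24 and 5.28 over all peaks. In full medium they were 4.61 and 4.78, against 5.30 and 5.05. They ran from 8 to 44 tags in cystine-restricted replicate 1 and from 8 to 42 in replicate 2. The lowest pileups listed in the keratin windows in full medium were 7 and 8 tags, so a region can be missing from a full-medium list and still hold tags. Where the local background is higher, a peak needs more tags to be listed. The full-medium replicate 1 peak from 53300077 to 53300378 had 20 tags over a local background of 6.96 tags. Its −log10 q was 2.12, against a lowest listed value of 1.30.

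In the type I window, the gained region with the highest rank lay from 39059517 to 39060291. It had pileups of 27 and 25 tags in the restricted libraries, with the authors' fold enrichments of 6.63 and 7.14. It was followed by 39686206 to 39686658, with 35 and 26 tags, by 39721525 to 39721894, with 19 and 17 tags, by 39595387 to 39595929, with 17 and 18 tags, and by 39240396 to 39240782, with 13 and 8 tags. All of these are weaker than most regions found in all 4 libraries, whose median pileups in the keratin windows were 48.5 and 38 tags in the same 2 libraries.

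In the type II window, the first gained region lay from 53300817 to 53301229, with 44 and 42 tags. It was 389 bp from the strong region that starts at 53301619, which had a peak in all 4 libraries. The region from 53231336 to 53231769 had 22 and 20 tags, that from 52792074 to 52792553 had 18 and 17, and that from 53000453 to 53000717 had 14 and 10. A further one, from 53343366 to 53343793, had 27 and 27 tags and was the last region of the window, on the side of KRT8 and KRT18. None of these had a full-medium peak. Just before the first of the gained regions, however, a separate region from 53300077 to 53300378 had 20 tags in full-medium replicate 1 alone.

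The single lost region lay from 52945223 to 52945696 on chromosome 12. It had 10 tags in full-medium replicate 1 and 16 in replicate 2, also below the medians of the keratin regions in all 4 libraries. These peaks were 150 and 368 bp wide and shared 44 bp, with summits 307 bp apart. With a reciprocal overlap of at least 50% required they were no longer joined. A different region, on chromosome 17 from 39216249 to 39216864, was then the one counted as lost. It lies within the region from 39215551 to 39216864, which had the largest rise in height. The lost call there thus depended on how peaks were joined. No keratin region was lost among peaks with a −log10 q of 5 or more.

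Some single-library regions lay close to a region found in all 4 libraries. Of the 48 single-library keratin regions 9 lay within 1 kb of one (18.8%), against 5.22% over all regions, in windows where such regions are denser. The tallest was from 52673147 to 52673397, 160 bp from the strongest keratin region. It had 68 tags in cystine-restricted replicate 1, at a fold enrichment of 1.80 over a local background of 37.3 tags. The other single-library keratin regions were mostly low, with a median pileup of 12 tags over all 48. Those from 52682316 to 52682510 and from 39215120 to 39215393 still had 31 tags each, in cystine-restricted replicate 1.

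The summits of a region often lay apart between libraries. The 4 summits lay within 50 bp in 8 of the 30 keratin regions in all 4 libraries (26.7%, against 33.2% over all such regions). In 12 of the 30 they were more than 300 bp apart, and the share over all such regions is not given here. The median spread was 293 bp in the type II and 100 bp in the type I window, against 124 bp over all regions. The tightest were the tall regions: the strongest of each window and that starting at 52585525, with spreads of 10, 7 and 8 bp.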

How the data were processed

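ATF3 CUT&Tag was deposited as 4 peak lists in narrowPeak layout, 1 per library. The submitters' processing notes name BWA 0.7.17 and MACS2 2.2.7.1 beside bcl2fastq 2.17, fastp 0.19.7 and the build hg19; options of the peak caller: not given in the sources used here. The deposited fold enrichment, −log10 p, −log10 q and whole-number score (10 times the −log10 q) are the authors' values per peak. The lowest −log10 q listed was 1.30.

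MACS2 gives the fold as (pileup + 1)/(background + 1) and p from a Poisson tail, so whole pileups and local backgrounds were recovered from each pair. For 100% of peaks the recovered pair gave the listed −log10 p within 0.1%. The lowest background of a list was taken as its genome background. Where a library had several peaks in a region, the highest was used. Recovery, merging and the change were tested on simulated data. Python 3.11.15, numpy 2.4.6, pandas 2.3.3 and scipy 1.17.1 were used.

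The windows, lists and tests were chosen with earlier results of these data known. Regions named are, by window, the 6 strongest in all 4 libraries, the 5 strongest gained and lost (by the lowest rank percentile of −log10 p), the widest, and those of largest and smallest change; regions near common ones and the comparison of the windows, and the largest changes by deposited fold, were chosen after the values were seen. Desmosome and other filament genes, and distances to gene starts, were not analysed here, as no annotation in hg19 was used. Same-numbered libraries did not deviate together (correlation 0.01 over 10331 regions).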

Additional observations from a re-analysis of the deposited data

How the results depend on the processing

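The comparison of the windows was added after the data were seen. With the same number of top peaks per library, the ratio of type II peak numbers was 0.983, below 1; it removes differences in list length by construction. There were then 6 gained and 2 lost keratin regions and a median change of 0.55. At a −log10 q of at least 5, 0 regions were lost and the median change was 0.58, and with a reciprocal overlap of 50% it was 0.55. By the deposited fold enrichment the median changes were 0.15 in both windows together, 0.22 in type I and 0.036 in type II, with a difference of 0.18. The regions on chromosome 12 starting at 52585525, 52596408, 53301619 and 53318800 then changed by −0.022, −0.079, −0.057 and −0.14, and that on chromosome 17 starting at 39287887 by −0.014. In same-numbered pairs (replicate block), pair 1 had 40 gained and 9 lost regions and medians of 0.42 in all and 0.57 in type I, with a difference of 0.16; pair 2 had 34 gained and 9 lost, a type I median of 0.82 and a difference of 0.41. In pair 1 the regions starting at 52637390 and 39287887 changed by 0.0044 and −0.10. Leaving out each library in turn gave 15 to 32 gained regions (27 and 32 without cystine-restricted replicates 1 and 2, 17 without full-medium replicate 2) and 1 to 9 lost regions; 9 were lost without full-medium replicate 2, 4 without full-medium replicate 1 and 2 without cystine-restricted replicate 1. The median change was then 0.43 to 0.63, 0.62 to 0.81 in type I and 0.30 to 0.50 in type II, with a difference of 0.25 to 0.47 (0.47 without cystine-restricted replicate 1). The region starting at 52637390 then changed by −0.39 to 0.032, above 0 without cystine-restricted replicate 2. Shares over all regions at these settings are not given here, so the gained and lost counts are not set against a background. The cause was not tested unless stated. The planned distances to gene starts were not run. Depth limits the weak regions, as the lowest pileups listed in the windows were 6 to 8 tags.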
